A study of Mus musculus with 24 samples.

Results

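AMPA receptors are the ligand-gated ion channels that carry most fast excitatory transmission in the cortex. Each receptor is a tetramer built from the pore-forming subunits GluA1 to GluA4, encoded by Gria1, Gria2, Gria3 and Gria4. The GluA2 subunit, after RNA editing, makes the channel nearly impermeable to calcium, so the proportion of Gria2 to the other subunits sets a basic property of the synapse. Transmembrane AMPA receptor regulatory proteins (TARPs) bind the tetramer and control its delivery to the surface and its gating. Cacng2 encodes stargazin, the founding TARP, and Cacng3, Cacng4 and Cacng8 encode its closest relatives. The cornichon homologs encoded by Cnih2 and Cnih3 are further auxiliary subunits that promote export from the endoplasmic reticulum and slow channel closing.

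These 10 genes were taken by name from the 25135 genes listed in both FPKM tables (fragments per kilobase of transcript, scaled to the mapped fragments of the library). No cut on their values was used, but they were chosen with earlier results of these data known. Expression was measured by total RNA sequencing of sorted nuclei from mouse cortex. The groups were wild-type (WT) and Kdm6b-KO by label, named Kdm6b-cKO in what follows, on day 1 (P1) or day 30 (P30) after birth, with 6 libraries per genotype and age and 24 in all. WT animals were Kdm6b wt/wt littermates and Kdm6b-cKO animals were Emx1-Cre; Kdm6b f/f, all on a C57BL/6 background with a SUN1-GFP nuclear reporter used for sorting. Emx1-Cre acts in progenitors of the dorsal telencephalon, whose descendants are glutamatergic neurons, astrocytes and part of the oligodendrocytes, so the deletion and the sort cover all of these cells together and no single type. KDM6B removes the repressive histone mark H3K27me3. The comparison of genotypes asked how its loss in this lineage changed gene expression at each age. The labels do not say whether the 6 libraries of a group came from separate animals, so p-values measure the spread between libraries, which may be partly technical.

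Kdm6b itself gave no clear check of the labels. Its FPKM ranged from 24.9 to 51.0 in WT and from 15.0 to 38.4 in Kdm6b-cKO at P1 (exact permutation p = 0.19, two-sided), and from 16.9 to 26.4 and 17.5 to 28.1 at P30 (exact permutation p = 0.446). These are values of the whole gene and do not resolve the floxed part. Depth, estimated from the FPKM steps of single reads, was 818000 to 3902000 reads in WT and 192000 to 2856000 in Kdm6b-cKO at P1, and 5121000 to 8310000 and 1938000 to 8064000 at P30. At P1, 4 WT libraries and 1 Kdm6b-cKO library carried reads on 393 to 786 of 1113 olfactory receptor genes, against 1 to 21 in the other libraries, and Kdm6b-cKO libraries 0 and 1 held 45S pre-ribosomal RNA at 3423 and 3239 FPKM, against 899 or less elsewhere. At P30, 45S was above 1000 FPKM in 5 WT libraries (1629 to 4027) and in Kdm6b-cKO libraries 2, 3 and 4 (3034, 15420 and 25878). These Kdm6b-cKO libraries were also the shallowest of that age. For the 10 members, differences that rest mainly on libraries of high 45S or low depth are also given without them. Genes of the other lists are given over all libraries only, except Nrn1 at P30. Markers of GABAergic neurons, which this lineage should not hold, were present at both ages, with summed FPKM of 456 to 884 in WT and 593 to 1530 in Kdm6b-cKO at P1, and none of the 10 was at 0 in every library. Sst made up most of these P1 sums, with 294 to 725 FPKM in WT and 476 to 1401 in Kdm6b-cKO. Of the 9 markers tested at P1, 6 were lower in Kdm6b-cKO and 3 higher, where 63.2% of all genes tested were lower. In bulk nuclei, fewer cells of a type and less RNA per cell cannot be told apart.

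On the mm9 build with GENCODE vM1, Gria1 spans chr11:56824889-57143746 (+), Gria2 chr3:80488858-80606713 (-), Gria3 chrX:38754031-39031778 (+) and Gria4 chr9:4417899-4796234 (-). Cacng2 spans chr15:77822178-77950458 (-), Cacng3 chr7:129815258-129912905 (+), Cacng4 chr11:107593671-107655871 (-) and Cacng8 chr7:3394567-3415366 (+). Cnih2 spans chr19:5092871-5098418 (-) and Cnih3 chr1:183282759-183390772 (+). RefSeq promoter windows (GRCm38.p6) matched 7 of the 10 members, namely Gria2, Gria4, Cacng2, Cacng3, Cacng8, Cnih2 and Cnih3. The 250 bases before the annotated start held 0 (Cacng8) to 36 (Cnih3) CG dinucleotides with a median of 16, against a median of 6 over all 32851 windows of that length. The window of Cnih2 is printed here because its level, lower at P30 in WT, is part of the description that follows. Capitals mark every CG dinucleotide, 17 in Cnih2 (chr19:5098522-5098771, -). A count of at least 17 was found in 23.5% of all windows.
Cnih2: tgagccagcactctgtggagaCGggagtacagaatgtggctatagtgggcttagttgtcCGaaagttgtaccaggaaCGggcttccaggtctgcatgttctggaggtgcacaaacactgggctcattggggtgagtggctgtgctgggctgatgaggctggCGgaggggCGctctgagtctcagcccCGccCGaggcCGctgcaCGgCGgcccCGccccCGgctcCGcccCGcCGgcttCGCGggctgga

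Within each library, the pore-forming subunits kept a steady order at P1. Gria2 stood first, then Gria1, then Gria4 and last Gria3 in 6 of 6 WT libraries and in 5 of 6 Kdm6b-cKO libraries, and FPKM is a value per transcript length, so the levels of different genes can be set side by side. In WT, Gria2 had 187 FPKM in the lowest library, a median of 282 and 332 in the highest, and Gria1 had 42.3, 66.6 and 85.2. Gria4 had 19.2, 29.95 and 44.7 FPKM, and Gria3 had 12.5, 14.3 and 18.9. The WT ranges of Gria1 and Gria4 overlapped across libraries, while Gria2 was apart from Gria1 and Gria4 apart from Gria3. As shares of the summed FPKM of the 4 Gria genes in a library, the WT medians were 70.1% for Gria2, 17.8% for Gria1, 8.34% for Gria4 and 4.08% for Gria3.

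By P30, Gria3 had taken second place. The order Gria2, Gria3, Gria1, Gria4 held in 6 of 6 WT libraries, with median shares of 59.1%, 19.6%, 14.3% and 7.53%. Gria3 in WT ran from 90.1 through a median of 109 to 120 FPKM at P30, 7.595 times its P1 median, and no P30 library of either genotype fell to the P1 range of that genotype. The share of Gria3 lay between 2.89% and 5.26% in WT at P1 and between 16.8% and 22.6% at P30, and in Kdm6b-cKO between 2.31% and 7.63% and between 17.2% and 23.0%. Gria2 (P30 over P1 in WT, 1.14), Gria1 (1.17) and Gria4 (1.38) differed less between the ages, and their WT ranges overlapped. The ages were normalized in separate tables, so levels across ages are described without a test, whereas shares and ratios within a library do not depend on that scaling.

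**Figure D1:**
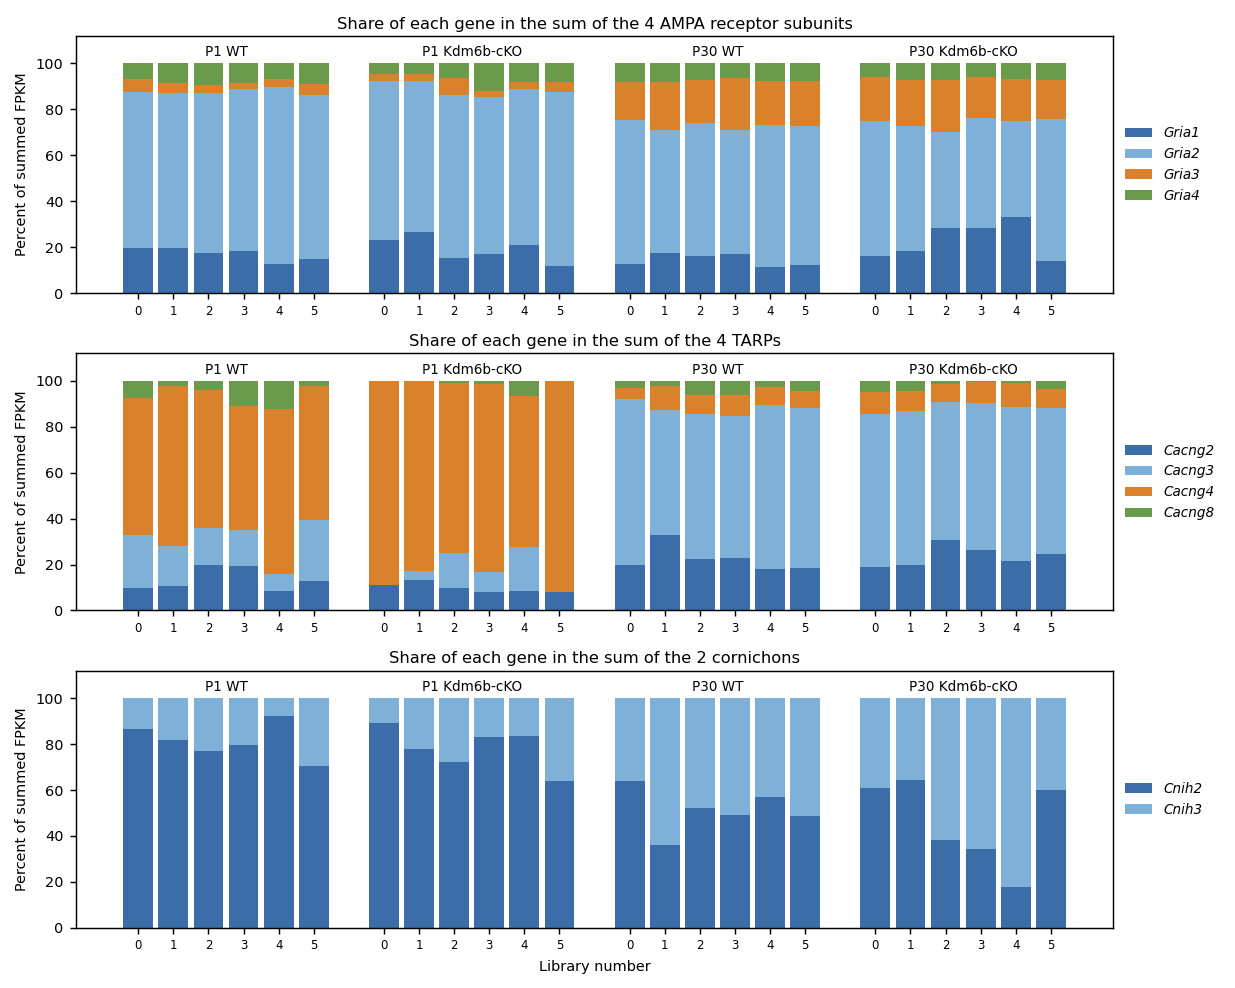
Share of each gene in the summed FPKM of its family (vertical axis, percent) in each of the 24 libraries (bars, numbered 0 to 5 within a group), for the 4 Gria genes, the 4 TARPs and both cornichons. Gria3 makes up 2.89% to 5.26% of the Gria sum in WT at P1 and 16.8% to 22.6% at P30, and Cacng4 makes up 54.0% to 72.1% of the TARP sum in WT at P1 and 4.67% to 10.5% at P30.

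The leading TARP differed between the ages. Cacng4, a TARP with high expression in the developing brain, was the first TARP in all 6 libraries of each genotype at P1, with a median share of 60.0% of the TARP sum in WT (range 54.0% to 72.1%). At P30 it supplied 8.26% (4.67% to 10.5%), and Cacng3 had become the first TARP in all 6 libraries of each genotype, at 66.3% (54.3% to 72.3%) against 16.6% at P1. The full order Cacng3, Cacng2, Cacng4, Cacng8 was the same in all 12 libraries of P30. In FPKM, Cacng4 had 40.1, 41.6 and 48.1 (lowest, median, highest) in WT at P1 and 3.02, 6.48 and 8.92 at P30, a median 6.42-fold lower. Cacng3 had 4.63, 12.0 and 18.0 FPKM at P1 and 43.7, 51.0 and 62.4 at P30, a median 4.25-fold higher. For Cacng3 and Cacng4 the ranges of the ages did not overlap in either genotype, as was common: of the 12644 genes tested at both ages, all P30 libraries lay above all P1 libraries for 17.7% in WT and 8.61% in Kdm6b-cKO, and below them for 29.9% and 16.9%. Gria3 belongs to the first share in both genotypes, Gria4 to the first in Kdm6b-cKO only and Cnih2 to the second in WT only. All these counts depend on the scaling of the separate tables. Stargazin, Cacng2, had 5.43, 8.11 and 14.7 FPKM in WT at P1 and 12.7, 15.8 and 26.6 at P30, with overlapping ranges and median shares of 11.8% and 21.0%.

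Cacng8, whose product is best known from the hippocampus, was the last TARP in 5 of 6 WT libraries at P1, where it stood above Cacng2 and Cacng3 in WT library 4, and in all 12 libraries of P30. It had a WT median of 3.90 FPKM at P1 and 2.86 at P30. These values rest on few reads: an estimated 1 to 8 per WT library at P1, 28 in the 6 libraries together, and 7 to 21 per library at P30.

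The balance of the cornichons also differed between the ages. Cnih2 exceeded Cnih3 in all 6 libraries of each genotype at P1, with a WT median share of 80.8%, but in 3 of 6 libraries of each genotype at P30, where its WT median share was 50.6%. In WT, Cnih2 had 89.5, 136 and 330 FPKM at P1 and 31.6, 44.0 and 49.2 at P30, a median 3.09-fold lower with no overlap. In Kdm6b-cKO the lowest P1 library, number 5 at 41.4 FPKM, lay within the P30 range of 14.9 to 48.7. That value rests on an estimated 8 reads, and the other P1 libraries of Kdm6b-cKO had 62.8 FPKM or more. Cnih3 had 25.7, 30.7 and 37.5 FPKM at P1 and 23.6, 43.4 and 56.4 at P30 in WT, and the ranges overlapped. Relative to the Gria sum of the same library, the cornichon sum was 43.0% at P1 and 15.7% at P30 (WT medians), with ranges of 27.9% to 94.7% and 12.2% to 18.9%. The TARP sum stood at 16.9% (14.6% to 25.0%) and 14.3% (12.1% to 19.0%) of the Gria sum, and these ranges overlapped between the ages. Within the TARP sum of WT, the shares of Cacng3 and Cacng4 were apart between the ages, while those of Cacng2 and Cacng8 overlapped.

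**Figure D2:**
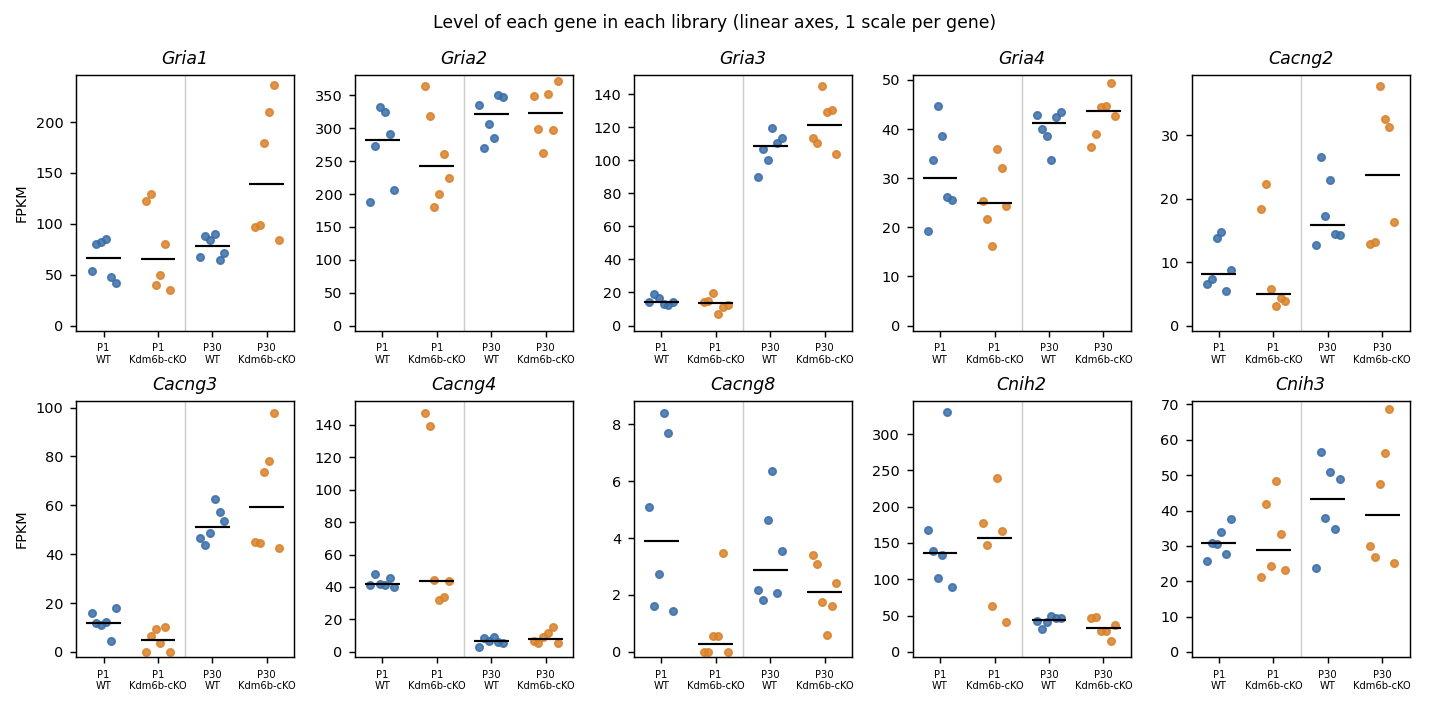
FPKM (vertical axes, linear, 1 scale per gene) of the 10 genes in each library (points) by age and genotype, with the median of 6 libraries as a bar. Gria3 and Cacng3 lie higher at P30 in both genotypes and Cacng4 lower, and 3 Kdm6b-cKO libraries stand above the rest for Gria1 at P30.

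Among all genes, Gria2 ranked near the top in every group. Its median percentile among the listed genes of a library was 99.3 in WT at P1 and 99.7 at P30. Gria3 went from a median percentile of 78.3 to 98.3 in WT, Cacng3 from 75.2 to 95.3, and Cacng4 from 92.3 to 68.9, so the age shifts of these genes also appear in ranks within a library. The genes whose log2 level followed Gria2 most closely over the 12 libraries of P1 were Oxsr1, Kdm2a, Csmd2, Nckap5 and Kmt2c (Pearson r 0.91 to 0.95), and over the 12 libraries of P30 they were Cep70, Hook1, Copg2, Eif2s1 and Uggt2 (r 0.90 to 0.93). The other subunits were not among them: r between Gria1 and Gria2 was 0.80 at P1 and -0.31 at P30. These correlations describe libraries that share scaling and differ in depth.

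At P1 none of the 10 members was called between genotypes. To be called, a gene had to differ by more than 2-fold and to have a Benjamini-Hochberg adjusted p under 0.05 in the limma fit of the 16250 genes tested, and 0% of these were called. With no adjustment, 2 members (Cacng3 and Cacng8) had p under 0.05, both lower in Kdm6b-cKO, where 14.5% of all genes tested did so in either direction, 7.77% with lower and 6.7% with higher values. The median log2 fold change of the members was -0.25, equal to the median of all genes tested (-0.25), and 8 of 10 members against 63.2% of all genes had values below 0. The lean of all genes toward lower values depends on the fit. With the split by olfactory receptor reads as a term, the median of all genes tested was -0.03. In that fit Cacng4 (0.34) was the only member above 0. In data simulated with these spreads, 12.5% of genes changed by 1.5 on the log2 scale passed at P1, so differences of that size could mostly not be detected at this age.

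The pore-forming subunits at P1 overlapped between genotypes. In Kdm6b-cKO, Gria1 had 34.6, 65.2 and 130 FPKM (log2 fold change 0.09, SE 0.35, limma adjusted p = 0.922). Its highest libraries were Kdm6b-cKO 0 and 1, at 122 and 130, and without these 2 libraries of high 45S the difference was -0.37 (SE 0.29, limma adjusted p = 0.536). Gria2 had 181, 243 and 365 FPKM (-0.07, SE 0.25, limma adjusted p = 0.914). Gria3 had 6.77, 13.5 and 19.6 FPKM (-0.24, SE 0.27, limma adjusted p = 0.69). Gria4 had 16.3, 24.9 and 35.9 FPKM (-0.26, SE 0.26, limma adjusted p = 0.66). None of the 4 differences exceeded its standard error at P1.

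The TARPs at P1 gave the widest differences of the members. Cacng8 had 5.08, 1.61, 2.73, 8.40, 7.69 and 1.44 FPKM in WT libraries 0 to 5, and was listed at 0 in Kdm6b-cKO libraries 0, 1 and 5 and at 0.56, 0.55 and 3.46 in libraries 2, 3 and 4. Of the Kdm6b-cKO libraries, 5 of 6 lay below all WT libraries and 1 lay among them. The log2 fold change was -3.45 (SE 0.94, unadjusted p = 0.00227, limma adjusted p = 0.182; exact permutation p = 0.00866 before any adjustment), and it was -1.68 with a pseudocount of 1 and -5.14 with 0.01, so its size is set largely by the pseudocount. The estimated reads were 28 over the WT libraries and 8 over the Kdm6b-cKO libraries, 6 of these in library 4. In the 3 libraries listed at 0, a count of 0 allows up to 3 reads, or 13.8, 5.66 and 24.6 FPKM, above or within the WT range, so these libraries could not show a difference in Cacng8. Without the 3 libraries of low depth or high 45S, which are the same libraries, the difference was -1.68 (SE 0.76, limma adjusted p = 0.174).

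Cacng3 had 15.9, 11.9, 11.2, 12.1, 4.63 and 18.0 FPKM in WT and 0, 6.38, 9.19, 3.46, 9.99 and 0 in Kdm6b-cKO at P1. The groups overlapped, with 3 Kdm6b-cKO libraries below all WT libraries and the others within the WT range. The log2 fold change was -2.78 (SE 1.13, unadjusted p = 0.0259, limma adjusted p = 0.282), against -1.66 with a pseudocount of 1 and -3.89 with 0.01. The libraries listed at 0 were again numbers 0 and 5, where up to 3 reads would allow 6.61 and 11.8 FPKM. Without the 3 doubted libraries the difference was -0.72 (SE 0.46, limma adjusted p = 0.304).

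Cacng4 and Cacng2 at P1 turned on the libraries of high 45S. Cacng4 had 148 and 139 FPKM in Kdm6b-cKO libraries 0 and 1 and 32.1 to 44.0 in the other 4, against 40.1 to 48.1 in WT. Its log2 fold change was 0.46 (SE 0.37, limma adjusted p = 0.577) with all libraries and -0.18 (SE 0.18, limma adjusted p = 0.666) without these 2. Cacng2 had 18.4 and 22.3 FPKM in the same libraries and 3.13 to 5.68 in the other 4, against 5.43 to 14.7 in WT. Its difference of -0.32 (SE 0.50, limma adjusted p = 0.78) became -1.07 (SE 0.34, limma adjusted p = 0.125) without them. Libraries 0 and 1 were the highest of 12 for Gria1, Cacng2 and Cacng4, 3 of 10 members, and for 9.60% of all genes tested.

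Cnih2 had 41.4, 157 and 240 FPKM in Kdm6b-cKO at P1 and Cnih3 had 21.3, 28.8 and 48.5, both around their WT values. The log2 fold changes were -0.30 (SE 0.43, limma adjusted p = 0.758) and -0.01 (SE 0.24, limma adjusted p = 0.984).

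**Figure D3:**
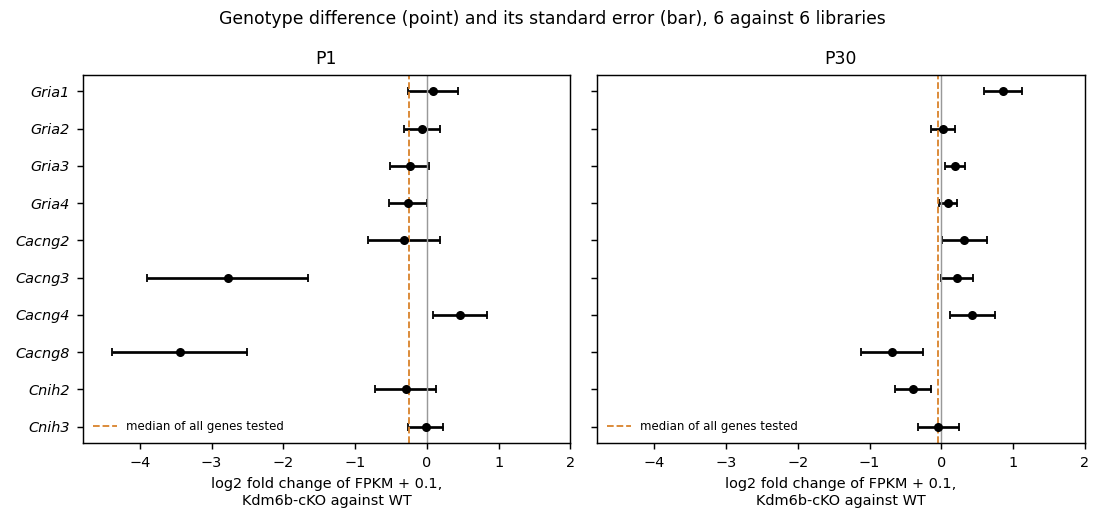
Log2 fold change of FPKM + 0.1 in Kdm6b-cKO against WT (horizontal axis) for each gene at P1 and P30, with bars of 1 standard error from the limma fit to 6 against 6 libraries; the dashed line is the median of all genes tested. Cacng3 (-2.78) and Cacng8 (-3.45) at P1 have the widest bars, and Gria1 at P30 (0.85) lies farthest to the right; none was called.

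At P30 none of the 10 members was called either, where 0.278% of the 13289 genes tested were (0.226% lower and 0.0527% higher). Gria1 alone had an unadjusted p under 0.05, against 12.7% of all genes tested in either direction, 7.37% with lower and 5.34% with higher values, and 0.369% of all genes had an adjusted p under 0.05. The median log2 fold change of the members was 0.14 and 3 of 10 were below 0, against a median of -0.05 and 54.8% below 0 over all genes. In simulated data of this age, 70.0% of genes changed by 1.5 on the log2 scale passed.

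Gria1 had the largest difference of the 10 members at P30, without a call. It had 67.3, 87.9, 84.5, 90.3, 64.1 and 71.4 FPKM in WT libraries 0 to 5 and 97.3, 99.2, 179, 210, 237 and 84.2 in Kdm6b-cKO libraries 0 to 5. Thus 5 of 6 Kdm6b-cKO libraries lay above all WT libraries and library 5 lay among them. The means were 151 ± 65.9 and 77.6 ± 11.3 FPKM (SD, n = 6 each), and the log2 fold change of 0.85 (SE 0.26) had an unadjusted p of 0.0063 and a limma adjusted p of 0.208. The exact permutation p was 0.00866 before any adjustment. The largest values came from libraries 2, 3 and 4, those of high 45S and least depth. Without these 3 libraries the difference was 0.28 (SE 0.15, limma adjusted p = 0.259). Among the libraries of high 45S alone it was 1.39 (5 WT and 3 Kdm6b-cKO, exact permutation p = 0.0179, the smallest such a split can give), and among those of low 45S it was 0.47 (1 WT and 3 Kdm6b-cKO, exact permutation p = 0.25, again the smallest possible). The libraries of high 45S were not matched in 45S level, at 1629 to 4027 FPKM in WT and 3034, 15420 and 25878 in Kdm6b-cKO. Neither that split nor a term for it makes the genotypes equal in 45S. With high 45S as a term in the fit, Gria1 was called at 1.13 (SE 0.17, limma adjusted p = 0.0047), a fit in which 4.14% of all genes tested were called. Cacng4 (0.79, SE 0.18, limma adjusted p = 0.0208) was also under 0.05 there, as were 10.7% of all genes, and it was not called. Quantile normalization left the value at 0.85 with a limma adjusted p of 0.0422, where 0.504% of all genes were under 0.05. Gria1 was therefore past the threshold in some fits and not in others, and its sign was the same in every fit run.

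The share of Gria1 in the Gria sum followed its level. It ranged from 11.3% to 17.4% in WT with a median of 14.3%, and from 14.0% to 33.1% in Kdm6b-cKO with a median of 23.3%. Gria1 exceeded Gria3 in 3 of 6 Kdm6b-cKO libraries, the same numbers 2, 3 and 4, and in 0 of 6 WT libraries. The log2 ratio of Gria1 to Gria2 was -2.03 ± 0.36 in WT and -1.20 ± 0.75 in Kdm6b-cKO (SD, n = 6), a difference of 0.83 (exact permutation p = 0.0411, Benjamini-Hochberg adjusted p = 0.192 over 14 ratio tests). The ratio difference was 1.43 within the libraries of high 45S and 0.46 within those of low 45S.

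Gria2 hardly differed at P30: 262, 324 and 372 FPKM in Kdm6b-cKO against 270, 321 and 350 in WT (log2 fold change 0.02, SE 0.17, limma adjusted p = 0.969). Gria3 had 104, 122 and 145 FPKM against 90.1, 109 and 120 (0.19, SE 0.14, limma adjusted p = 0.617; exact permutation p = 0.0736). Gria4 had 36.4, 43.6 and 49.4 FPKM against 33.7, 41.3 and 43.5 (0.09, SE 0.13, limma adjusted p = 0.82). For Gria3 and Gria4, Kdm6b-cKO libraries 2, 3 and 4 exceeded all WT libraries and the other 3 lay among them. Without these libraries the differences were 0.04 (SE 0.13) for Gria3 and -0.03 (SE 0.12) for Gria4.

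The TARPs at P30 showed the same division of the Kdm6b-cKO libraries. Cacng3 had 73.9, 78.0 and 97.9 FPKM in libraries 2, 3 and 4 and 42.4 to 44.9 in the others, against 43.7 to 62.4 in WT (log2 fold change 0.22, SE 0.22, limma adjusted p = 0.728). Cacng2 had 37.8, 32.5 and 31.2 FPKM in these libraries and 12.9 to 16.3 in the others, against 12.7 to 26.6 in WT (0.32, SE 0.31, limma adjusted p = 0.711). Cacng4 had 9.35, 11.5 and 15.4 FPKM and 5.37 to 6.54 in the others, against 3.02 to 8.92 in WT (0.43, SE 0.31, limma adjusted p = 0.607). Cacng8 went the other way, with 1.75, 0.60 and 1.60 FPKM and 2.43 to 3.39 in the others, against 1.81 to 6.36 in WT (-0.68, SE 0.43, limma adjusted p = 0.55). The libraries of high 45S were not matched in 45S level between the genotypes. Within high 45S the differences of these TARPs were 0.65 for Cacng3 (exact permutation p = 0.0179), 0.86 for Cacng2, 0.73 for Cacng4 and -1.39 for Cacng8 (exact permutation p = 0.0357 each). Without libraries 2, 3 and 4 they were -0.23, -0.31, -0.07 and -0.07, and none was past the threshold.

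Cnih2 had 14.9, 33.4 and 48.7 FPKM in Kdm6b-cKO at P30 against 31.6, 44.0 and 49.2 in WT, with Kdm6b-cKO libraries 2, 3 and 4 below all WT libraries (-0.40, SE 0.25, limma adjusted p = 0.556). Without these libraries the direction turned, at 0.06 (SE 0.16, limma adjusted p = 0.834). Cnih3 had 25.2, 38.7 and 68.7 against 23.6, 43.4 and 56.4 (-0.04, SE 0.29, limma adjusted p = 0.97). The cornichon sum was 10.4% to 13.8% of the Gria sum in Kdm6b-cKO and 12.2% to 18.9% in WT, so the groups overlapped.

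Libraries 2, 3 and 4 were the 3 highest of 12 for Gria1, Gria3, Gria4, Cacng2, Cacng3 and Cacng4, 6 of 10 members, and the 3 lowest for Cacng8 and Cnih2. Of all genes tested, these libraries were the highest for 8.35% and the lowest for 7.06%. Gria2 and Cnih3 were the members that did not sort this way.

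**Figure D4:**
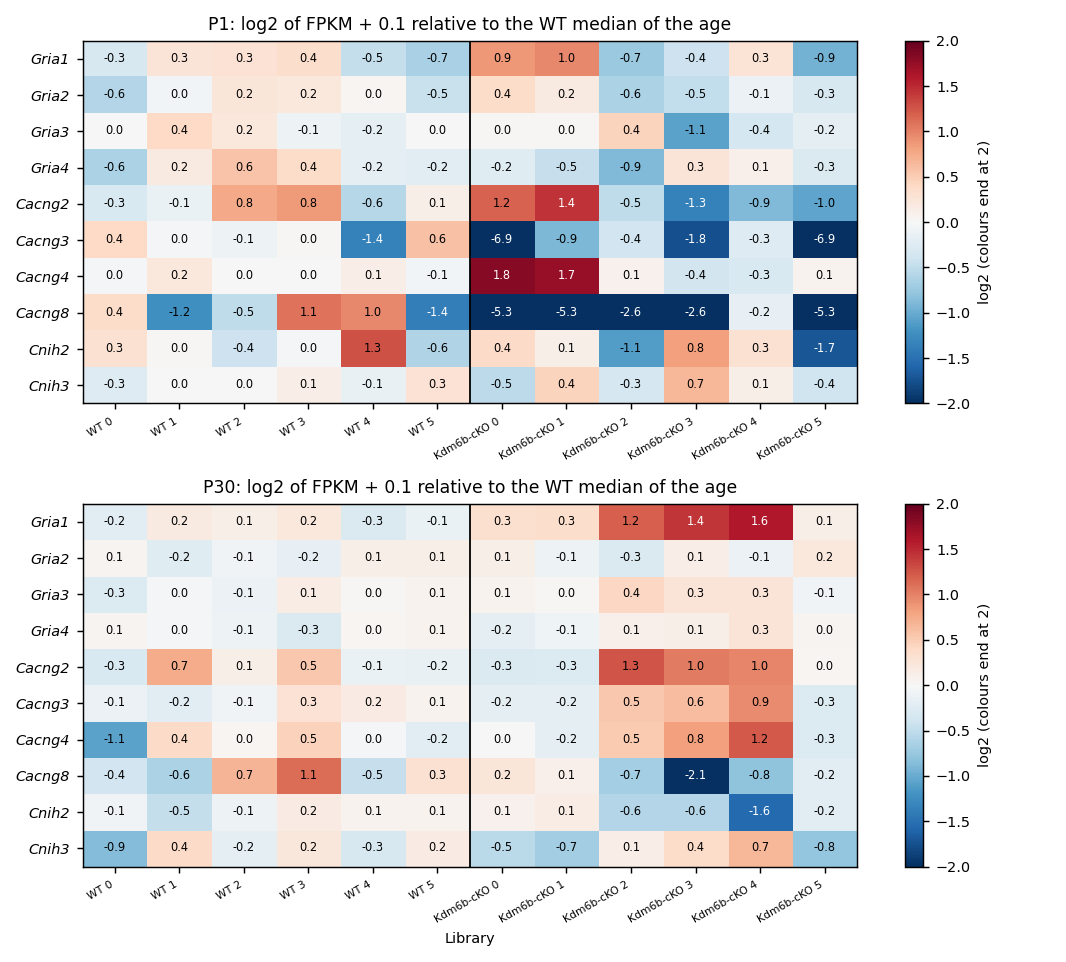
Log2 of FPKM + 0.1 in each library relative to the WT median of the same age (colour and printed value; the colours end at 2 in either direction), with the 10 genes as rows and the 12 libraries of an age as columns. At P30, Kdm6b-cKO libraries 2, 3 and 4 hold the highest values of 6 genes, Gria1 among them, and the lowest of Cacng8 and Cnih2; at P1, Kdm6b-cKO libraries 0 and 1 hold the highest values of Gria1, Cacng2 and Cacng4.

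Markers of cell types stood at other levels in these libraries of P30. The 10 glutamatergic markers summed to 236 to 368 FPKM in WT, to 340, 434 and 445 in Kdm6b-cKO libraries 2, 3 and 4, and to 171 to 196 in the other 3. Slc17a7 had the highest level of these (WT median 174 FPKM). Gene by gene over all Kdm6b-cKO libraries, 8 of the 10 were lower and 2 higher, where 54.8% of all genes tested were lower. Of the 10, 3 had an unadjusted limma p under 0.05, as did 12.7% of all genes tested in either direction. The 7 pan-neuronal markers summed to 607 to 834 FPKM in WT, to 836, 1050 and 1215 in libraries 2, 3 and 4, and to 632 to 733 in the others. GABAergic markers summed to 32.7 to 392 FPKM in WT and 145 to 320 in Kdm6b-cKO. All 7 of the 7 tested had higher values in Kdm6b-cKO, 5 with unadjusted p under 0.05, against 5.34% of all genes tested with higher values. All 7 markers of mature oligodendrocytes were lower, with sums of 259 to 494 FPKM in WT and 134 to 195 in Kdm6b-cKO. Of these markers 6 had unadjusted p under 0.05, against 7.37% of all genes tested with lower values. The part of cell composition, depth and 45S in the differences of Gria1 and the TARPs was not tested.

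No subunit ratio was called. Of 14 tests (7 ratios at each age, exact permutation, Benjamini-Hochberg adjusted), the lowest adjusted p was 0.182, for Cacng4 to Cacng8 at P1 (log2 ratio 3.54 ± 1.09 in WT and 7.45 ± 2.94 in Kdm6b-cKO, SD, n = 6). That ratio rests on the few reads of Cacng8, with 3 Kdm6b-cKO libraries at 0, and its size is set largely by the pseudocount. Gria3 to Gria2 differed by -0.17 at P1 and 0.17 at P30, and Gria4 to Gria2 by -0.19 and 0.06 (adjusted exact permutation p = 0.617 for each).

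The genotype effect was also compared between the ages, as the difference at P30 less the difference at P1, over 12644 genes tested at both. None of the 10 members was called, where 0.00791% of all genes were, 1 gene. Cacng3 and Cacng8 had an unadjusted p under 0.05, as did 13.2% of all genes. The values were 3.00 for Cacng3 (SE 1.24, limma adjusted p = 0.305), 2.76 for Cacng8 (SE 1.05, limma adjusted p = 0.271) and 0.77 for Gria1 (SE 0.46, limma adjusted p = 0.487). For the other 7 members the values lay between -0.10 (Cnih2) and 0.64 (Cacng2).

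Genes that act with the AMPA receptor were read from 2 further lists. Of 22 other auxiliary and biogenesis genes tested at P1, 0 were called and 17 were lower (median log2 fold change -0.42 against -0.25 for all genes), and 4 had unadjusted p under 0.05, all lower. Of all genes tested at P1, 63.2% were lower and 7.77% were lower with unadjusted p under 0.05. The smallest p-values of the list were those of Prrt2, a presynaptic and receptor-associated membrane protein (41.5 ± 14.5 FPKM in WT, 16.4 ± 8.498 in Kdm6b-cKO, limma adjusted p = 0.195), and Frrs1l, an assembly factor of the AMPA receptor in the endoplasmic reticulum (9.22 ± 2.56 and 2.94 ± 1.95, limma adjusted p = 0.22). At P30, 1 of 21 was called, where 0.278% of all genes tested were and 0.226% with lower values. Nrn1, encoding the GPI-anchored protein neuritin, fell by 1.03 on the log2 scale (SE 0.17, limma adjusted p = 0.0226), from 59.7 ± 10.5 to 29.4 ± 6.03 FPKM, with no overlap between the groups, where 1.05% of all genes tested did not overlap with lower values. With the library number as a block its limma adjusted p was 0.166, and it was 0.0568 to 0.076 without WT library 2, 3, 4 or 5 or Kdm6b-cKO library 1, so the call was lost in these fits. Without Kdm6b-cKO libraries 2, 3 and 4 the log2 fold change was -0.88 (SE 0.17, limma adjusted p = 0.0207), under 2-fold. It was also under 2-fold, and not called, at -0.94 with array weights, -0.95 with weights by depth and -0.93 without Kdm6b-cKO library 4. Shisa9, an auxiliary subunit of the AMPA receptor also called CKAMP44, had the next smallest p and also no overlap, as 0.888% of all genes with higher values (3.69 ± 0.98 in WT, 6.65 ± 0.57 in Kdm6b-cKO, 0.87, SE 0.20, limma adjusted p = 0.0942), and Abhd6, a lipase that binds the receptor, followed with 25.3 ± 2.94 and 32.9 ± 3.23 FPKM (limma adjusted p = 0.245).

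Of 23 scaffold and trafficking genes tested at each age, 0 were called. At P1 19 were lower (median -0.31), against 63.2% of all genes tested. Grip2, a PDZ protein that binds the GluA2 and GluA3 tails, had 19.6 ± 5.09 FPKM in WT and 5.20 ± 3.27 in Kdm6b-cKO without overlap (-2.08, SE 0.39, limma adjusted p = 0.16), where 0.683% of all genes tested did not overlap with lower values. Dlg2, the scaffold PSD-93, had 16.6 ± 5.17 and 7.49 ± 3.75 (-1.22, SE 0.35, limma adjusted p = 0.19). At P30 the relative of Grip2, Grip1, had 10.1 ± 3.46 in WT and 18.4 ± 4.73 FPKM in Kdm6b-cKO (0.88, SE 0.22, limma adjusted p = 0.131). Akap5, which anchors kinases and phosphatases at the receptor, had 5.44 ± 1.69 and 10.8 ± 7.07 (0.80, SE 0.36, limma adjusted p = 0.372).

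The NMDA and kainate receptor genes tested were likewise not called at either age. Of 6 NMDA receptor genes tested at P1, 5 were lower and 3 had unadjusted p under 0.05, against 63.2% lower and 14.5% with such a p in either direction over all genes. Among the 3 were Grin2a (4.69 ± 1.49 in WT, 2.18 ± 1.65 FPKM in Kdm6b-cKO, limma adjusted p = 0.289) and Grin1, the obligate subunit (23.7 ± 4.43 and 14.7 ± 8.87, limma adjusted p = 0.292). At P30 Grin3a (1.36 ± 0.66 and 2.94 ± 0.73, limma adjusted p = 0.226) and Grin2b (20.5 ± 4.43 and 27.2 ± 3.77, limma adjusted p = 0.322) had the smallest p-values, both with higher values. Of 5 kainate receptor genes, Grik5 at P1 had 11.4 ± 3.73 FPKM in WT and 132 ± 176 in Kdm6b-cKO, where it reached 415 in 1 library (limma adjusted p = 0.232), and Grik1 had 15.7 ± 3.25 and 11.4 ± 4.79 (limma adjusted p = 0.414). Of the same genes, Grik2 at P30 had 10.5 ± 0.43 and 18.0 ± 4.12 (0.74, SE 0.16, limma adjusted p = 0.0793), and Grik3 had 6.99 ± 1.38 and 5.20 ± 1.54 (limma adjusted p = 0.439).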

How the data were processed

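Total RNA libraries from SUN1-GFP+ cortical nuclei, purified by fluorescence-activated nuclei sorting, were prepared with the VAHTS Universal V10 kit and sequenced on AVITI or NovaSeq instruments. The authors aligned reads to mm9 with HISAT2 and deposited gene-level FPKM per library, in a table for each age, with Cuffdiff named for quantification and comparison; versions, annotation and strand handling are not given in the sources used here. Without stated strand handling, overlapping genes cannot be separated. The deposited tables of the authors' own comparisons (group values, log2 fold change, test statistic, p and q values) were not used. Columns carried a genotype, an age and a number from 0 to 5 that matches no sample label, so libraries are named by these numbers.

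Genes whose FPKM averaged 1 or more across an age's 12 libraries were tested on log2(FPKM + 0.1) with limma 3.58.1 in R 4.3.3 (empirical Bayes with trend, two-sided), and p-values were adjusted by Benjamini-Hochberg over all genes tested. Fold changes are on this scale, which understates changes between low values above 0; where libraries are listed at 0 their size depends on the pseudocount. All 10 members passed the filter at both ages. Calls required an adjusted p under 0.05 and more than 2-fold. Single genes and within-library log2 ratios were tested by two-sided exact permutation over 924 splits, unadjusted for genes and adjusted over 14 tests for ratios. The genotype effect was compared between ages with all 24 libraries. Depth was estimated from the FPKM steps that 1 read makes in genes of 1 transcript (GENCODE vM1 lengths, fragments of 200 bases). Reads per member follow from depth and transcript length. For Cacng8 the length was instead set so that its smallest values above 0 stand for 1 read, and its reads and floors rest on this. A floor is 3 reads and covers counting error only. The fit was tested on simulated data with 200 genes changed by 1.5 on the log2 scale. The members and gene lists were chosen with earlier results of these data known. Named genes were the members, Kdm6b, the genes called in each list and otherwise the 2 of smallest p per list and age, and the 5 nearest to Gria2. Alternatives were pseudocounts of 1 and 0.01, other filters, scalings, weights and terms, and leaving out each library; weights by depth and the 3 fits without libraries of low depth or high 45S were added after the data were seen.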

Additional observations from a re-analysis of the deposited data

Results flagged for a closer look

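In groups of 6 libraries, a library was singled out where its gap to the nearest other exceeded Dixon's 95% limit. Of 68 groups of member levels and ratios examined, 3 met this, and chance alone gives 3.4. Cnih2 at P1 had 330.1 FPKM in WT library 4, against 89.5 to 168 in the other WT libraries. Cacng8 at P1 had 3.457 FPKM in Kdm6b-cKO library 4, from an estimated 6 reads, against 0.56 or less in the other Kdm6b-cKO libraries. The log2 ratio of Gria4 to Gria2 at P30 was -2.751 in WT library 1, the highest of its group, against a group median of -2.99.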

How the results depend on the processing

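No member was called at P1 or between the ages under any alternative run. At P30, 1 member (Gria1) passed the adjusted p with quantile normalization, and with the 45S term 1 was called (Gria1) and 2 passed the adjusted p (Gria1 at 1.13 and Cacng4 at 0.79); the cause was not tested. Leaving out each library in turn gave 0 calls throughout, and Gria1 at P30 stayed between 0.70 and 1.00 with limma adjusted p from 0.157 to 0.358.

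Same-numbered libraries deviated together by correlations of -0.18 to 0.23 at P1 and -0.30 to 0.33 at P30. These show no clear pairing by number, but they cannot exclude a weak one. With the number as a replicate block, 0 members passed at either age, and the calls over all genes at P30 went from 37 to 0. The ratios of Cacng2 and Cacng4 to Cacng8 at P1 and of Gria1 to Gria2 at P30 had an adjusted p of 0.146 (exact permutation of signs). Their unadjusted p of 0.03125 is the smallest that the signs of these pairs can give, so this test could not rank them lower.

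Signs reversed as follows, in log2 differences. At P1, Gria1 became -0.19 with quantile normalization and with weights by depth, -0.035 with array weights, -0.16 with olfactory receptor signal as a term, -0.82 within the libraries of olfactory receptor signal, -0.37 without the 2 libraries of high 45S and -0.21 without these and the shallowest library. Cacng4 became -0.0053 (array weights), -0.025 (weights by depth), -0.18 and -0.24 (without the 2 and the 3 libraries). Cnih3 became 0.17, 0.16, 0.0042 and 0.14 in the same order, and 0.20 within the libraries with no olfactory receptor signal, where Gria2 was 0.18 and Cacng2 0.19. Cnih2 was 0.074 with array weights. At P30, array weights gave -0.043 for Gria4, -0.13 for Cacng2 and -0.18 for Cacng3. Leaving out Kdm6b-cKO libraries 2, 3 and 4 gave -0.028 for Gria4, -0.31 for Cacng2, -0.23 for Cacng3, -0.070 for Cacng4 and 0.059 for Cnih2. The 45S term gave -0.025 for Gria2 and 0.30 for Cnih3, and the libraries of high 45S alone gave -0.040 and 0.33. Within low 45S the values were -0.13 for Gria4, -0.092 for Cacng3, 0.42 for Cacng8, 0.075 for Cnih2 and 0.20 for Cnih3. Between the ages, quantile normalization gave 0.18 for Cacng4, 0.36 for Cnih2 and 0.10 for Cnih3.

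Ratios reversed within the libraries of olfactory receptor signal at P1 for Gria1 to Gria2 (-0.49), Gria3 to Gria2 (0.16) and Cacng3 to Cacng8 (-1.34), and within low 45S at P30 for Gria4 to Gria2 (-0.14), Cacng2 to Cacng8 (-0.28) and Cacng3 to Cacng8 (-0.51). Leaving out 1 library gave 2.45 to 3.94 for Cacng2 to Cacng8 and 3.29 to 4.75 for Cacng4 to Cacng8 at P1, both highest without Kdm6b-cKO library 4, where 3 of the 5 libraries left in its group hold 0 reads of Cacng8 and the pseudocount sets the value, and -0.078 to 1.12 for Cacng3 to Cacng8 at P1, -0.0050 to 0.13 for Gria4 to Gria2 and -0.025 to 0.59 for Cnih3 to Cnih2 at P30. Among single genes the ranges that crossed 0 were -0.10 to 0.28 (Gria1), -0.18 to 0.025 (Gria2), -0.50 to 0.0057 (Cnih2) and -0.15 to 0.091 (Cnih3) at P1, -0.020 to 0.081 (Gria2) and -0.20 to 0.088 (Cnih3) at P30, and -0.00090 to 0.20 (Gria2), -0.23 to 0.23 (Cacng4), -0.40 to 0.12 (Cnih2) and -0.19 to 0.11 (Cnih3) between the ages.

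Calls over all genes moved from 0 to 408 at P1 with weights by depth, and from 37 at P30 to 550 with the 45S term, 530 with array weights, 62 with weights by depth and 364 without Kdm6b-cKO libraries 2, 3 and 4. Between the ages they moved from 1 to 483 with array weights, 33 with quantile normalization and 10 with a pseudocount of 1. Leaving out 1 library moved these calls too: at P1 from 0 to 2 without WT library 4, 5 without Kdm6b-cKO library 5 and 52 without Kdm6b-cKO library 4. At P30 they ranged from 2 (without WT library 2, 3 or 5) to 43, with 5 without WT library 4, 10 and 17 without Kdm6b-cKO libraries 0 and 1, and 21 without Kdm6b-cKO library 5. Between the ages they ranged from 0 to 91, with 91 and 69 without Kdm6b-cKO libraries 4 and 5 of P1. At P1 depth limits Cacng8 and Cacng3, whose levels rest on 0 to 8 and 0 to 61 estimated reads per library.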
